A study of Trametes cinnabarina with 17 samples.

Results

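Genes transcribed most strongly on pine were described in the white-rot fungus *Pycnoporus cinnabarinus* (strain CIRM-BRFM 137) from RNA-seq of mycelium grown on 6 carbon sources. A gene was taken when its mean log2(normalized count + 1) on pine was at least 6 and at least 1 above the mean of each of the 5 other groups, so that the lead over the next highest group was at least a doubling. In the normalized table of 9167 genes, 88 met these limits. The rule also set aside 3 protein IDs by name, 2 of which had met them, and this left 86 genes, or 0.938%. The values on all 6 carbon sources chose these genes, and pine against any other group is therefore given below as a description with no test.

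The mycelium came from liquid cultures harvested on day 3. The tested substrates were wood of pine, wood of aspen, straw of wheat, and xylans mixed with galactomannans (xylan-galactomannan below), set against Avicel, a crystalline cellulose, and maltose, a simple sugar. There were 3 libraries for each group except Avicel, which had 2, numbered 1 and 3. The labels give maltose at 20 g/l in the maltose cultures, and at 2.5 g/l beside 15 g/l of the substrate in the 5 other media, so that substrate and maltose concentration cannot be told apart in a comparison against maltose. All libraries came from 1 strain and 1 day.

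White-rot fungi break down lignin, cellulose and hemicelluloses with secreted oxidoreductases and carbohydrate-active enzymes (CAZymes), and take up the released sugars and peptides through membrane transporters. Softwoods such as pine differ from hardwoods and straw in their lignin, in hemicelluloses rich in galactoglucomannan, and in resin compounds that are toxic to many microbes. Fungi are known to export or convert toxic compounds with ATP-binding cassette (ABC) transporters and intracellular enzymes.

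Pine libraries held 11296893 to 12530780 counts in total, and the 14 other libraries held 10668073 to 16176027. The deposited table gives genes by protein ID only, and 78 of the 86 genes had no annotation in the sources used here. Only 11 of the 86 genes appear in the study's lists of selected genes, so a missing annotation does not show a missing function. For 8 genes, the study's lists of selected genes gave a predicted function, a signal peptide (the leader of a secreted protein) or a detection in the secretome (the proteins found in the culture medium). Gene lengths were not used here, so a larger count in 1 gene than in another does not show a higher transcript level.

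The 86 genes covered a wide range of counts on pine, with a mean log2(normalized count + 1) between 6.004 and 15.54 and a median of 10.45. Of these, 25 were above 12 and 12 were under 8. The study uses a level of 12 for highly transcribed genes, but on the mean over a group of similarly transcribed genes. The lead over the next highest group had a median of 1.24 on the log2 scale, a 2.35-fold difference, and a maximum of 3.22. Most leads were modest, and 21 were over 1.5 and 7 over 2. At the threshold, the 3 smallest leads taken were 1.005, 1.005 and 1.006, the 3 largest left out were 0.999, 0.999 and 0.998, and 42 genes in all had a lead between 0.9 and 1. The lowest pine means taken were 6.004 and 6.356, and the highest left out with a sufficient lead were 5.93 and 5.77.

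In 82 of the 86 genes, the lowest of the 3 pine libraries was above the highest of the 14 other libraries. Of all genes in that table, 8.71% showed this, and since the rule used the same values, nothing is read from the difference. The other 4 genes overlapped, and in 3 of them the library that reached into the pine range was replicate 2 of xylan-galactomannan. For protein 3695, the pine libraries held 1716, 2176 and 1242 normalized counts, against 483, 1432 and 656 on xylan-galactomannan. For protein 7081, they held 2615, 3387 and 1938, against 662, 2477 and 1293. The lowest pine library of protein 1205 had 94.6 normalized counts and the same xylan-galactomannan library had 99.4. The fourth, protein 2322, was low in a pine library, with 2538, 940 and 2406 normalized counts on pine, against 910, 1087 and 443 on aspen. None of these 4 has an annotation in the sources used here, and they are named because they overlap.

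Together, the 86 genes took 2.83% ± 0.244 of all counts on pine (SD, n = 3). They took 0.875% ± 0.152 on aspen, 1.08% ± 0.0456 on wheat straw and 0.847% ± 0.0755 on xylan-galactomannan (SD, n = 3 each), 0.695% ± 0.0426 in the 2 Avicel libraries (SD), while maltose gave 0.691% ± 0.0592 (SD, n = 3). On pine, 40.6% of these counts fell on 5 genes, proteins 1271, 8505, 1368, 4348 and 8166. Of the 5, only protein 4348 has a predicted function in the study's lists.

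**Figure D1:**
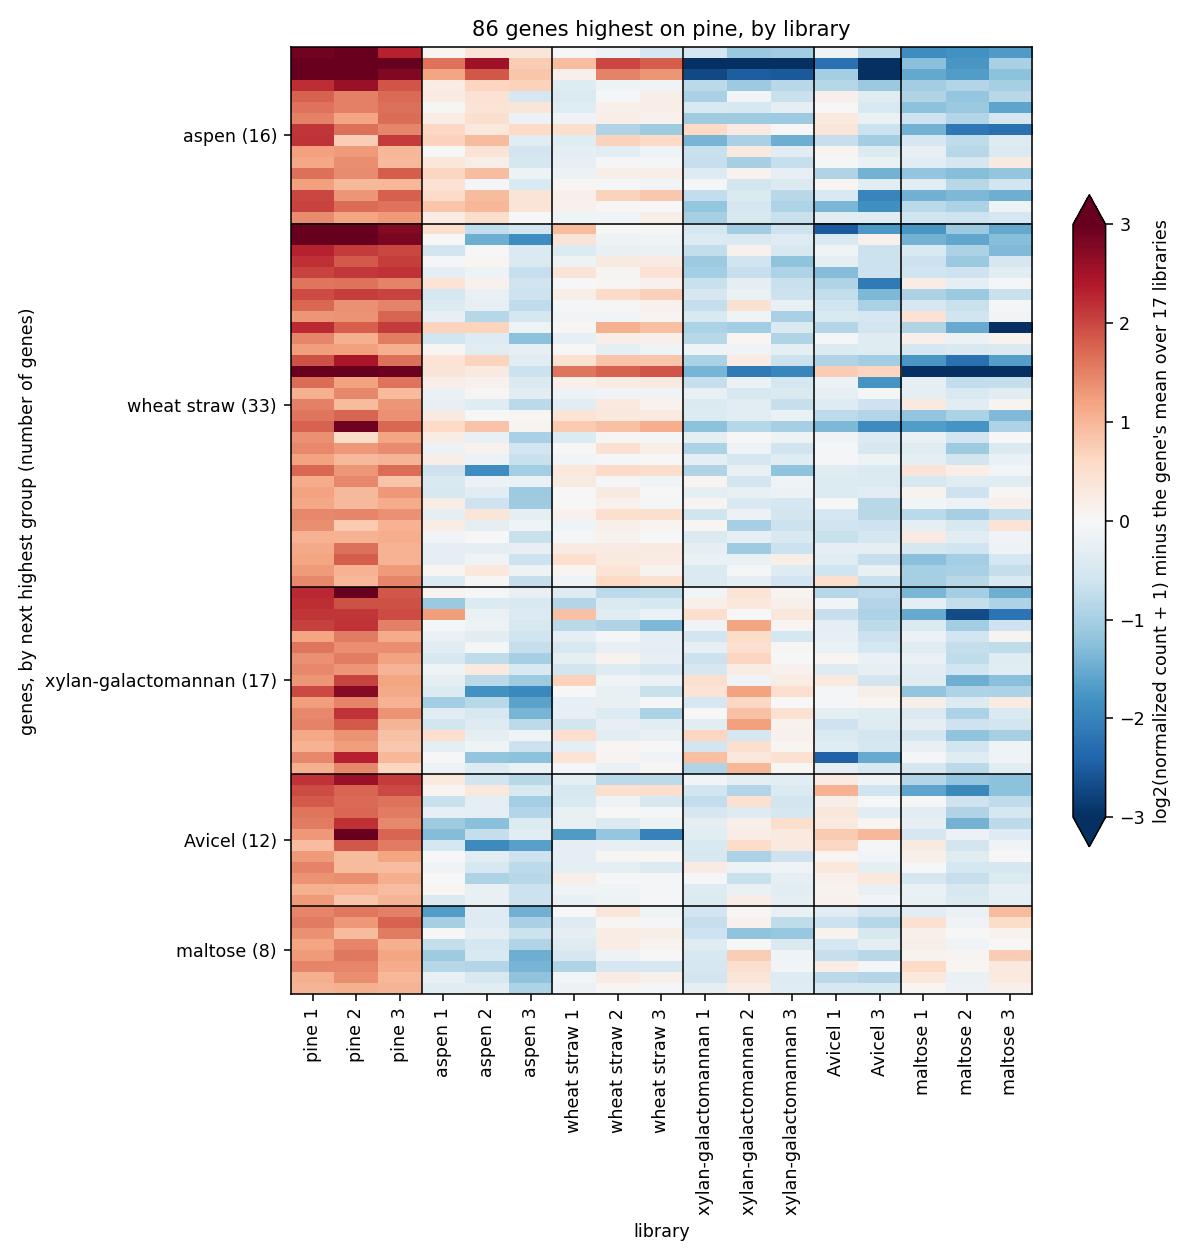
Each row is 1 of the 86 genes and each column 1 of the 17 libraries, and the colour is log2(normalized count + 1) minus the gene's mean over all libraries. Genes are grouped by the carbon source that came next after pine (aspen 16, wheat straw 33, xylan-galactomannan 17, Avicel 12, maltose 8), and the blocks differ mainly in which of the 14 other libraries are pale or blue.

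The carbon source next after pine was wheat straw for 33 genes, xylan-galactomannan for 17, aspen for 16, Avicel for 12 and maltose for 8. Among all 1912 genes with their highest mean on pine, the same counts were 551 for wheat straw, 254 for xylan-galactomannan, 476 for aspen, 349 for Avicel and 282 for maltose. The lowest group was maltose for 29 of the 86 genes, aspen for 24, Avicel for 18, xylan-galactomannan for 12 and wheat straw for 3. Among the 1912 genes it was maltose for 495, aspen for 398, Avicel for 313, xylan-galactomannan for 571 and wheat straw for 135. The median log2 difference of pine over the other groups was 1.72 over aspen, 1.43 over wheat straw, 1.79 over xylan-galactomannan, 1.77 over Avicel and 2.03 over maltose. In the map of the 86 genes by library, genes with their lowest mean on aspen show as blue aspen columns, mostly in the lower blocks. These group means were used by the rule, and nothing further is read from their order.

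The genes were not flat outside pine. The highest and lowest of the 5 other group means lay between 0.184 and 5.96 apart on the log2 scale, with a median of 1.08, against a median of 0.87 over all genes. This spread was under 1 for 39 genes, and 58.4% of all genes were under 1. It was over 3 for 3 genes, proteins 8355, 6680 and 6438.

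Of the genes with a predicted function, 4 encode transporters, which carry sugars, peptides or foreign compounds across membranes. Protein 4348 (KOG0065) is a predicted pleiotropic drug resistance transporter, of the ABC family that exports toxic compounds in yeast. It had 33639, 34579 and 28104 normalized counts on pine. On aspen it had 3965, 1417 and 1080, on wheat straw 5122, 3518 and 3611, on xylan-galactomannan 2963, 2912 and 2988, on Avicel 2862 and 4271, and on maltose 1483, 1335 and 1616. The pine libraries were close together and far above all others, with a lead of 2.99 on the log2 scale over wheat straw, or 7.95-fold. Among the other groups, its transcript was higher on wheat straw than on maltose by 1.44 ± 0.33 on the log2 scale (± SE, edgeR quasi-likelihood test, Benjamini-Hochberg adjusted p = 0.0015), and higher on Avicel than on maltose by 1.24 ± 0.36 (adjusted p = 0.012). The second call was lost without Avicel replicate 3 (0.95, edgeR adjusted p = 0.12). On aspen the log2 difference from maltose was 0.52 ± 0.32 (edgeR adjusted p = 0.18), with aspen replicate 1 well above the other aspen libraries. Without that library, its transcript on wheat straw exceeded that on aspen by 1.70 on the log2 scale (edgeR adjusted p = 2e-05), against 0.92 ± 0.33 with it.

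Proteins 8078 and 2797 (KOG0255) are predicted transporters of the major facilitator superfamily, a large group that includes sugar and drug carriers. Protein 8078 had 19931, 19827 and 17430 normalized counts on pine. It had 10787, 3951 and 3386 on aspen, 8266, 3484 and 3970 on wheat straw, 6473, 4486 and 5673 on xylan-galactomannan, 2784 and 2378 on Avicel, and 1576, 697 and 969 on maltose. Pine lay above every other library, maltose lay below every other library, and replicate 1 was the highest library in all 6 groups. Relative to maltose, its transcript was higher by 2.46 ± 0.40 on aspen, 2.25 ± 0.40 on wheat straw, 2.33 ± 0.40 on xylan-galactomannan and 1.22 ± 0.42 on Avicel (log2 ± SE, edgeR adjusted p = 4.5e-05, 0.00015, 0.00019 and 0.032). The call on Avicel was lost in DESeq2 (adjusted p = 0.056), without either Avicel library and without maltose replicate 2 or 3 (edgeR adjusted p from 0.064 to 0.14). It was also higher on aspen than on Avicel, by 1.23 ± 0.44 (edgeR adjusted p = 0.03), a call that was lost in DESeq2 (adjusted p = 0.053), without either Avicel library and without aspen replicate 1, where the difference was 0.52 (edgeR adjusted p = 0.26). Wheat straw against Avicel was not called (edgeR adjusted p = 0.071), but was called with a replicate block (1.08, adjusted p = 0.0079) and without wheat straw replicate 2 (adjusted p = 0.044).

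Protein 2797 had 8077, 13258 and 7369 normalized counts on pine, and its next highest group was xylan-galactomannan with 4560, 3043 and 3822. Wheat straw held 5241, 2969 and 2815, Avicel 3954 and 2237, aspen 2704, 1850 and 1552, and maltose 2515, 1171 and 1364. It was higher than on maltose by 1.10 ± 0.32 on wheat straw and by 1.15 ± 0.32 on xylan-galactomannan (log2 ± SE, edgeR adjusted p = 0.0092 and 0.0081). The wheat straw call was lost without wheat straw replicate 1 (0.75, edgeR adjusted p = 0.071) and without maltose replicate 2 (0.89) or 3 (0.96), and the xylan-galactomannan call without maltose replicate 2 (0.95). On aspen, its log2 difference from maltose was 0.25 ± 0.32 (edgeR adjusted p = 0.52).

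The last transporter, protein 4044 (KOG2262), belongs to the ISP4 family, whose characterized fungal members carry small peptides. It had 7254, 7264 and 7490 normalized counts on pine. It had 3348, 3581 and 2233 on aspen, 3419, 3793 and 3521 on wheat straw, 2595, 2988 and 2556 on xylan-galactomannan, 2215 and 2451 on Avicel, and 4166, 2812 and 3299 on maltose. The pine libraries differed little, the aspen range overlapped those of the 4 other groups, and none of the 7 tested comparisons without pine called the gene. Its lead of 1.04 was among the smallest and fell to 0.94 with upper-quartile scaling.

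Proteolysis was represented by protein 3078, a predicted tripeptidyl-peptidase I (EC 3.4.14.9) with a signal peptide, an enzyme that removes tripeptides from the ends of proteins. It had 8077, 13956 and 5465 normalized counts on pine. It had 1146, 1423 and 1398 on aspen, 1094, 977 and 764 on wheat straw, 756, 509 and 533 on xylan-galactomannan, 992 and 624 on Avicel, and 301, 309 and 337 on maltose. All pine libraries exceeded all others, and all maltose libraries were below all others. Relative to maltose its transcript was higher by 2.04 ± 0.27 on aspen, 1.55 ± 0.27 on wheat straw and 1.32 ± 0.29 on Avicel (log2 ± SE, edgeR adjusted p = 4e-06, 0.00011 and 0.0018), and the Avicel value fell below the threshold of 1 without Avicel replicate 1 (0.98, adjusted p = 0.052).

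Of the 86 genes, only protein 929 has a CAZyme family in the study's lists. It is a predicted glycoside hydrolase of family GH95, a family known for enzymes that remove fucose residues from plant polysaccharides. It has a signal peptide, and the study detected it in the secretome on pine, aspen and wheat straw and also on Avicel and maltose. It had 15090, 9327 and 12910 normalized counts on pine, 5576, 7204 and 4900 on aspen, and 4190, 6010 and 6605 on wheat straw. It had 2243, 2784 and 2113 on xylan-galactomannan, 2749 and 946 on Avicel, and 1377, 1481 and 1349 on maltose. The 3 plant substrates were thus above the 3 other groups in every library, with pine in front by a lead of 1.07. Its transcript was higher on aspen and on wheat straw than on maltose, by 2.05 ± 0.29 and 1.97 ± 0.29, and higher than on Avicel, by 1.68 ± 0.34 and 1.60 ± 0.34 (log2 ± SE, edgeR adjusted p = 1e-05, 2.3e-05, 0.00051 and 0.00087). The lead over aspen was 0.99 with upper-quartile scaling and 0.92 without pine replicate 1, under the limit of 1.

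Protein 6680 has a signal peptide and was detected in the secretome, and the study's lists give no function for it. It had 6667, 11193 and 5731 normalized counts on pine, 1886, 3047 and 1495 on aspen, and 933, 2342 and 2077 on wheat straw. It had 128, 150 and 145 on xylan-galactomannan, 412 and 87.2 on Avicel, and 288, 260 and 357 on maltose. The groups formed 3 levels without overlap, with pine on top, aspen and wheat straw in the middle, and the other 3 groups at the bottom. It was higher than on maltose by 2.80 ± 0.43 on aspen and 2.54 ± 0.43 on wheat straw, and higher than on Avicel by 3.12 ± 0.52 on aspen and 2.85 ± 0.51 on wheat straw (log2 ± SE, edgeR adjusted p = 2.2e-05, 8.6e-05, 8.6e-05 and 0.00022). On xylan-galactomannan it was lower than on maltose, by -1.12 ± 0.44 (edgeR adjusted p = 0.045), a call that was lost in DESeq2 (adjusted p = 0.068) and without any 1 of the 6 libraries of that comparison (edgeR adjusted p from 0.059 to 0.13).

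Intracellular metabolism was represented by protein 7442 (KOG3719, EC 2.3.1.7), a predicted carnitine acetyltransferase, which moves acetyl groups between coenzyme A and carnitine and so between compartments of the cell. It had 8912, 6375 and 8521 normalized counts on pine. It had 3203, 3044 and 2041 on aspen, 3080, 3303 and 3339 on wheat straw, 1731, 2477 and 1913 on xylan-galactomannan, 2458 and 814 on Avicel, and 2279, 1661 and 1702 on maltose. Pine was above all other libraries, and the 2 Avicel libraries were far apart. The gene was called in none of the 7 tested comparisons without pine, where wheat straw exceeded Avicel by 0.99 ± 0.32 (log2 ± SE, edgeR adjusted p = 0.02). This difference was called with upper-quartile factors, with a replicate block (1.09) and without wheat straw replicate 1 (1.03), with edgeR adjusted p from 0.01 to 0.03. Without Avicel replicate 1, it was higher on wheat straw than on Avicel by 2.00 and on aspen than on Avicel by 1.77, and lower on Avicel than on maltose, by -1.21 (log2, edgeR adjusted p = 5.9e-05, 0.00013 and 0.0051).

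The named genes also include the pair of unannotated genes with the largest leads. Protein 9969 had the largest lead of all, 3.22 on the log2 scale or 9.34-fold over wheat straw. It had 842, 1743 and 527 normalized counts on pine. It had 109, 46.0 and 52.7 on aspen, 150, 76.6 and 80.1 on wheat straw, 54.1, 37.2 and 50.7 on xylan-galactomannan, 12.9 and 23.1 on Avicel, and 22.4, 36.2 and 26.0 on maltose. The pine libraries were far apart and still lay well above all others. Its transcript was higher on wheat straw than on maltose by 1.82 ± 0.45 and than on Avicel by 2.48 ± 0.59 (log2 ± SE, edgeR adjusted p = 0.0027 and 0.0024). On aspen it was higher by 1.28 ± 0.47 than on maltose and by 1.94 ± 0.61 than on Avicel (edgeR adjusted p = 0.026 and 0.015), and both aspen calls were lost without aspen replicate 1 (0.77, adjusted p = 0.22, and 1.43, adjusted p = 0.084). The call against maltose was also lost without maltose replicate 1 or 3, and the call against Avicel without either Avicel library (edgeR adjusted p from 0.051 to 0.11).

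Protein 8355 had the widest range among the other groups. It had 4785, 7854 and 5040 normalized counts on pine, 1042, 1970 and 572 on aspen, and 639, 1355 and 1179 on wheat straw. It had 37.1, 39.0 and 36.3 on xylan-galactomannan, 70.6 and 3.01 on Avicel, and 139, 99.2 and 170 on maltose. As for protein 6680, the plant substrates stood above the 3 other groups in every library. Its transcript was higher than on maltose by 3.11 ± 0.48 on aspen and 2.93 ± 0.48 on wheat straw, and higher than on Avicel by 5.09 ± 0.68 on aspen and 4.91 ± 0.67 on wheat straw (log2 ± SE, edgeR adjusted p = 2.3e-05, 6e-05, 7.6e-06 and 1.3e-05). It was lower than on maltose by -1.88 ± 0.55 on xylan-galactomannan and by -1.98 ± 0.67 on Avicel (edgeR adjusted p = 0.011 and 0.029). The Avicel value rested on replicate 3, without which it was -0.94 (edgeR adjusted p = 0.3), and its call was also lost without maltose replicate 1 or 3 (adjusted p = 0.053 and 0.077).

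**Figure D2:**
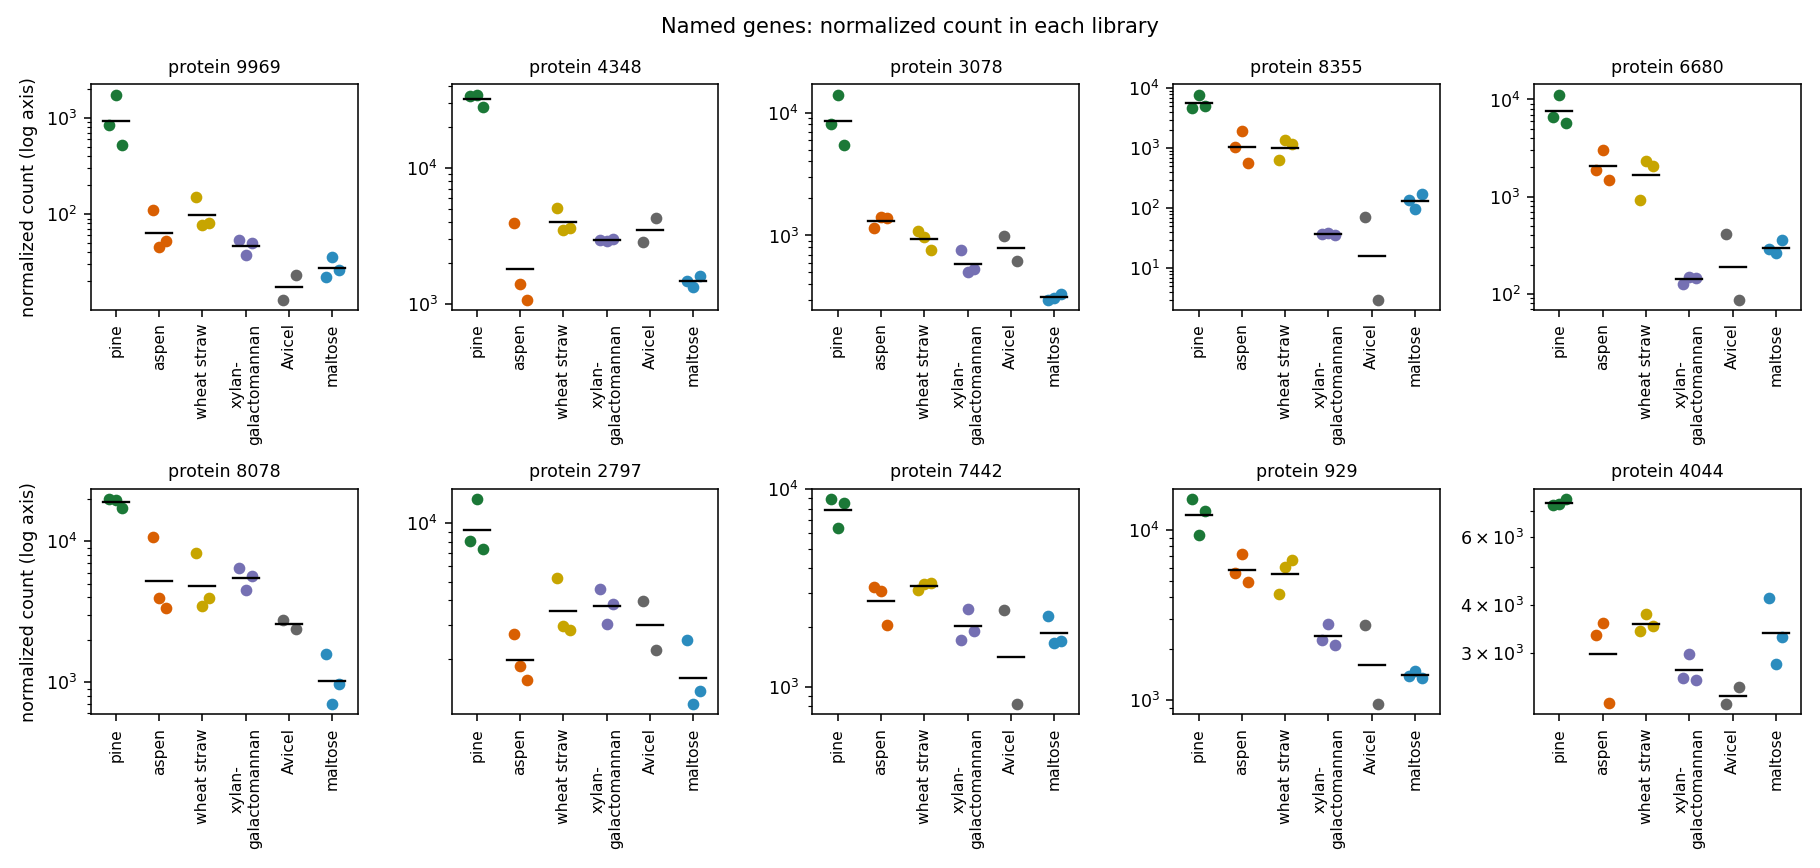
Normalized counts (log axis, its range differing between panels) of the 10 named genes in each library, with the 6 carbon sources along each panel, pine at the left. Points are libraries and bars are the group means on the log2(normalized count + 1) scale. Proteins 8355, 6680 and 929 show pine, aspen and wheat straw above the other groups, and protein 4044 shows the aspen range overlapping every group but pine.

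The same 86 genes were then examined in 7 comparisons that do not include pine. Xylan-galactomannan was compared with maltose only, and its differences from aspen, wheat straw and Avicel were not tested. The comparisons used 1 edgeR quasi-likelihood model over all libraries, with 9162 genes tested and all 86 among them. Calls needed an adjusted p (Benjamini-Hochberg) under 0.05 together with a fold change beyond 1 or -1 on the log2 scale. On aspen against maltose, 20 of the 86 genes were called higher, where 13.1% of all genes were, and 7 were called lower, where 10% of all genes were. On wheat straw against maltose, 22 were higher (9.53% of all genes) and 1 was lower (6.13%). On xylan-galactomannan against maltose, 11 were higher (6.97%) and 3 were lower (3.2%), and on Avicel against maltose, 9 were higher (6.01%) and 7 were lower (5.83%). These 4 comparisons share the maltose libraries.

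Against Avicel, where the media held the same maltose concentration, 14 genes were higher on aspen (10.2% of all genes) and 6 were lower (7.39%). On wheat straw 17 were higher (8.18%) and 1 was lower (7.15%). Between the plant substrates other than pine, 3 genes were higher on wheat straw than on aspen (3.42%) and 0 were lower in edgeR (4.31%), with 0 also lower in DESeq2 and 6 lower at an unadjusted p under 0.05 in edgeR. As shares of the 86, the calls for higher came to 23.3% on aspen, 25.6% on wheat straw, 12.8% on xylan-galactomannan and 10.5% on Avicel against maltose. Against Avicel they came to 16.3% on aspen and 19.8% on wheat straw. Each was above the share of all genes. The rule used the means of these 5 groups as well as that of pine, so nothing is read from such differences in share, here or below. On wheat straw against aspen, the 3.49% called higher was close to the share of all genes. The median log2 fold change of the 86 genes was 0.17 for aspen, 0.43 for wheat straw, 0.26 for xylan-galactomannan and 0.15 for Avicel against maltose, and between -0.05 and -0.0046 for all genes. It was 0.10 for aspen and 0.33 for wheat straw against Avicel, and 0.24 for wheat straw against aspen. In every comparison most of the 86 genes were not called, with 59 left uncalled on aspen against maltose and 83 on wheat straw against aspen.

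**Figure D3:**
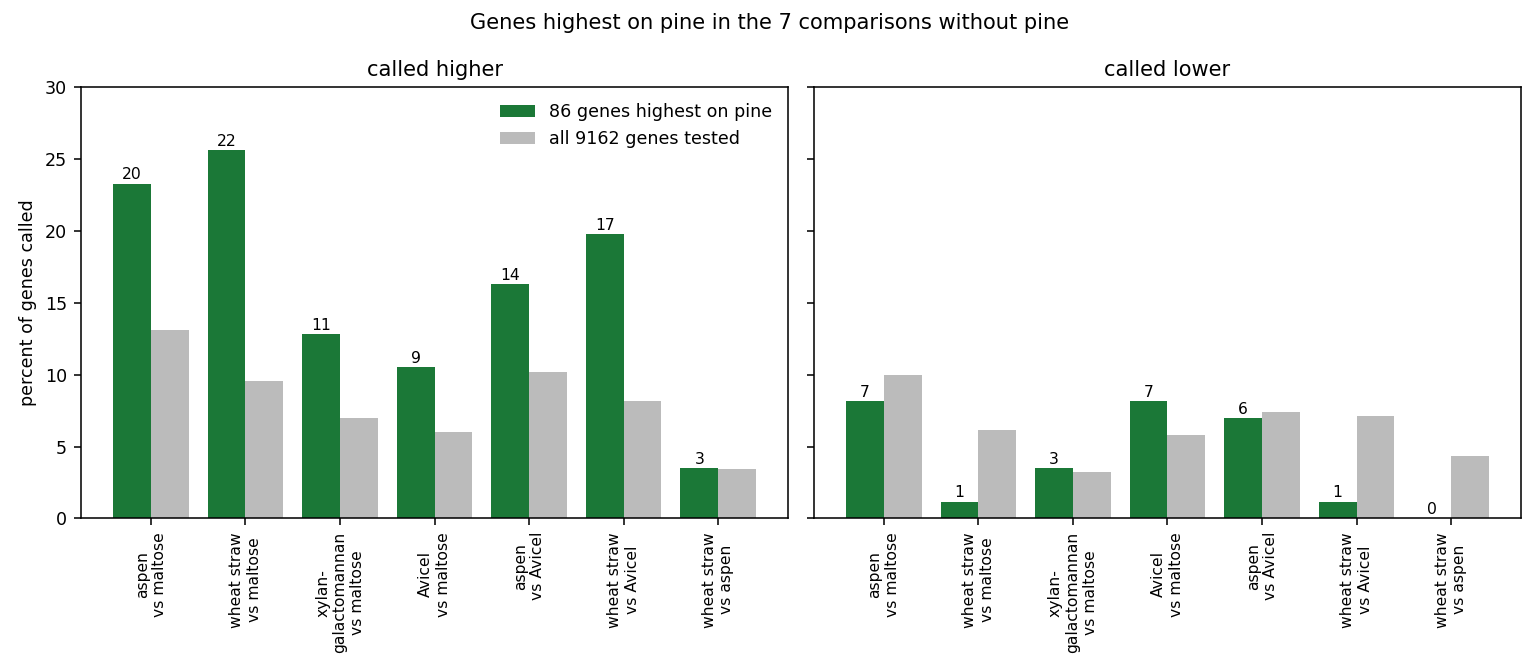
Percent of genes called higher (left) and lower (right) in each of the 7 tested comparisons without pine, for the 86 genes highest on pine (green, with their number above the bar) and for all 9162 genes tested (grey). On the left the green bars stand above the grey ones in all comparisons against maltose and Avicel and level with them for wheat straw against aspen. On the right they stand below them in the 3 comparisons of wheat straw and, by less, for aspen against maltose and against Avicel. For xylan-galactomannan and Avicel against maltose they stand above them on the right.

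In all, 46 of the 86 genes (53.5%) were called in at least 1 of the 7 comparisons, against 37.7% of all genes, and 40 were called in none. The 40 include the predicted transporter 4044, and also the carnitine acetyltransferase 7442, whose difference between wheat straw and Avicel lay at the threshold as given above. At the other end, 8 genes were higher on both aspen and wheat straw than on both maltose and Avicel, where 3.75% of all genes were. They were proteins 929, 6680, 8355 and 9969, described above, and the unannotated proteins 2203, 3271, 6552 and 9064. Counting maltose as the only control, 15 genes (17.4%) were higher on both aspen and wheat straw, where 7.84% of all genes were.

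Genes called in small numbers are named here, chosen after their values were seen. The genes higher on all 4 other media than on maltose, 3 of the 86 where 1.41% of all genes were, were protein 8078 and the unannotated proteins 6438 and 2579. Protein 6438 had 18038, 20206 and 17268 normalized counts on pine, 6818, 7714 and 8356 on wheat straw, 3791 and 3518 on Avicel, 2917, 2716 and 1424 on aspen, 848, 514 and 582 on xylan-galactomannan, and 193, 193 and 235 on maltose. No group overlapped with another. Its transcript was higher than on maltose by 5.18 ± 0.26 on wheat straw, 4.11 ± 0.26 on Avicel, 3.48 ± 0.24 on aspen and 1.63 ± 0.23 on xylan-galactomannan (log2 ± SE, edgeR adjusted p = 2.3e-11, 6.4e-10, 1.3e-09 and 2.7e-05). Protein 2579 had 5193, 3667 and 3234 normalized counts on pine and 439, 263 and 246 on maltose, and its log2 differences from maltose in those 4 media lay between 1.54 on wheat straw and 2.38 on aspen (edgeR). Its wheat straw call was lost without wheat straw replicate 1 (0.88), and its Avicel call, 1.80, without Avicel replicate 1 (edgeR adjusted p = 0.052).

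The genes higher on wheat straw than on aspen were proteins 6438, 3658 and 5714. Protein 6438 differed by 1.70 ± 0.22 and protein 5714 by 1.59 ± 0.28 (log2 ± SE, edgeR adjusted p = 1.4e-05 and 0.00037). The call for protein 3658, 1.16 ± 0.36 (edgeR adjusted p = 0.022), was lost without aspen replicate 1 or 3 and without wheat straw replicate 2 (adjusted p from 0.083 to 0.1). Proteins 5714 and 3658 were among the 7 genes lower on aspen than on maltose, by -1.31 ± 0.29 and -1.35 ± 0.36 (edgeR adjusted p = 0.00068 and 0.0033), and for protein 3658 the difference was -0.83 without maltose replicate 3. Protein 5714 had 173, 131 and 168 normalized counts on pine, 33.7, 13.6 and 25.0 on aspen, and 67.9, 59.9 and 49.5 on maltose, so that the woods gave its highest and its lowest group mean.

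Protein 3284 was the only gene lower on wheat straw, both against maltose and against Avicel. It had 117, 471 and 160 normalized counts on pine, 13.9, 20.5 and 10.8 on wheat straw, 82.3 and 95.3 on Avicel, and 32.8, 41.7 and 35.6 on maltose. Against Avicel the difference was -2.56 ± 0.51 (log2 ± SE, edgeR adjusted p = 0.00058). The difference from maltose, -1.31 ± 0.50 (edgeR adjusted p = 0.039), lost its call without any 1 of the maltose libraries and without wheat straw replicate 1 or 3 (adjusted p from 0.054 to 0.12). The genes lower on xylan-galactomannan than on maltose were proteins 6680 and 8355, given above, and protein 3418. Against maltose, 15 of the 86 genes (17.4%) were lower in at least 1 of the 4 media, close to the 14.9% of all genes.

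Several of these counts changed by more than 1.5 times when a single library was left out. Without Avicel replicate 1, 2 genes in place of 9 were higher on Avicel than on maltose, and 2 in place of 6 were lower on aspen than on Avicel. Without Avicel replicate 3, 1 gene in place of 7 was lower on Avicel than on maltose, and 9 in place of 14 were higher on aspen than on Avicel. Without maltose replicate 3, 2 in place of 7 were lower on Avicel than on maltose, without aspen replicate 3, 3 in place of 6 were lower on aspen than on Avicel, and without xylan-galactomannan replicate 3, 1 in place of 3 was lower there than on maltose. On wheat straw against aspen, 7 in place of 3 were higher without aspen replicate 1 and 6 without aspen replicate 2, and 1 in place of 0 was lower without wheat straw replicate 1. On wheat straw against maltose, 0 in place of 1 were lower without wheat straw replicate 1 or maltose replicate 1 or 3, and 2 without wheat straw replicate 2.

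The transporter, CAZyme, peptidase and other genes that share a predicted role with these genes were taken from the annotation of the study's lists of selected genes, 167 in all. The study chose those genes on the same libraries, so their direction against maltose is not independent evidence. Of 21 predicted transporters, 4 were among the 86. The 21 were higher than on maltose in 17 cases on aspen, 17 on wheat straw, 6 on xylan-galactomannan and 5 on Avicel, with medians of 1.61, 1.35, 0.48 and 0.55 on the log2 scale. In those 4 comparisons 0 were lower in edgeR or in DESeq2, with 0, 0, 1 and 3 lower at an unadjusted p under 0.05 in edgeR. Against Avicel, 13 were higher on aspen, and 8 were higher and 1 was lower on wheat straw. Of the 4 transporters highest on pine, protein 8078 alone was called higher on aspen than on maltose.

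Of 27 predicted CAZymes, protein 929 alone was among the 86. The 27 were higher than on maltose in 22 cases on aspen, 24 on wheat straw, 8 on xylan-galactomannan and 8 on Avicel. In those comparisons 0 were lower in edgeR or in DESeq2, with 0, 0, 0 and 3 lower at an unadjusted p under 0.05 in edgeR. The list of 16 genes for oxidoreductases and detoxification enzymes holds the 3 protein IDs that the rule set aside by name. Of these, protein 5611 (KOG0157, a predicted cytochrome P450, a family of enzymes that oxidize foreign compounds) had a lead of 1.30 on pine and protein 5280 (KOG4178, a predicted epoxide hydrolase) had a lead of 1.43, so both met the limits, while protein 5741 (KOG0156, a predicted cytochrome P450) had a lead of 0.50. The other 13 genes of the list were not among the 86. Of 4 peptidases and 6 genes of carbon and coenzyme A metabolism, 1 each were among them, proteins 3078 and 7442. Against maltose, 3 of the 4 peptidases and 4 of the 6 metabolic genes were higher on aspen, and 1 and 2 were higher on wheat straw.

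Replicates of a group also differed in the level of these genes as a set. The median deviation of the 86 genes from their group mean was -0.33 on the log2 scale in aspen replicate 3, with 74 of 86 genes below the mean, against 0.16 and 0.18 in aspen replicates 1 and 2. It was -0.20 in maltose replicate 2, with 75 of 86 below, against 0.07 in each of the other maltose libraries. On Avicel it was 0.12 in replicate 1 and -0.12 in replicate 3, with 20 and 66 of 86 genes below the mean. Over the 8296 genes with a pine mean of at least 6, the medians of the 17 libraries lay between -0.02 and 0.01. Over all genes, between 47.4% and 52.8% were below their group mean.

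In these libraries of media without pine, most of the 86 genes deviated in the same direction. Aspen replicate 3 had the lowest total count of all libraries, 10668073, while maltose replicate 2 (14312160) lay between the other maltose libraries and Avicel replicate 3 (15112609) was above Avicel replicate 1 (13724145). The part of depth or of RNA quality in these deviations was not tested.

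**Figure D4:**
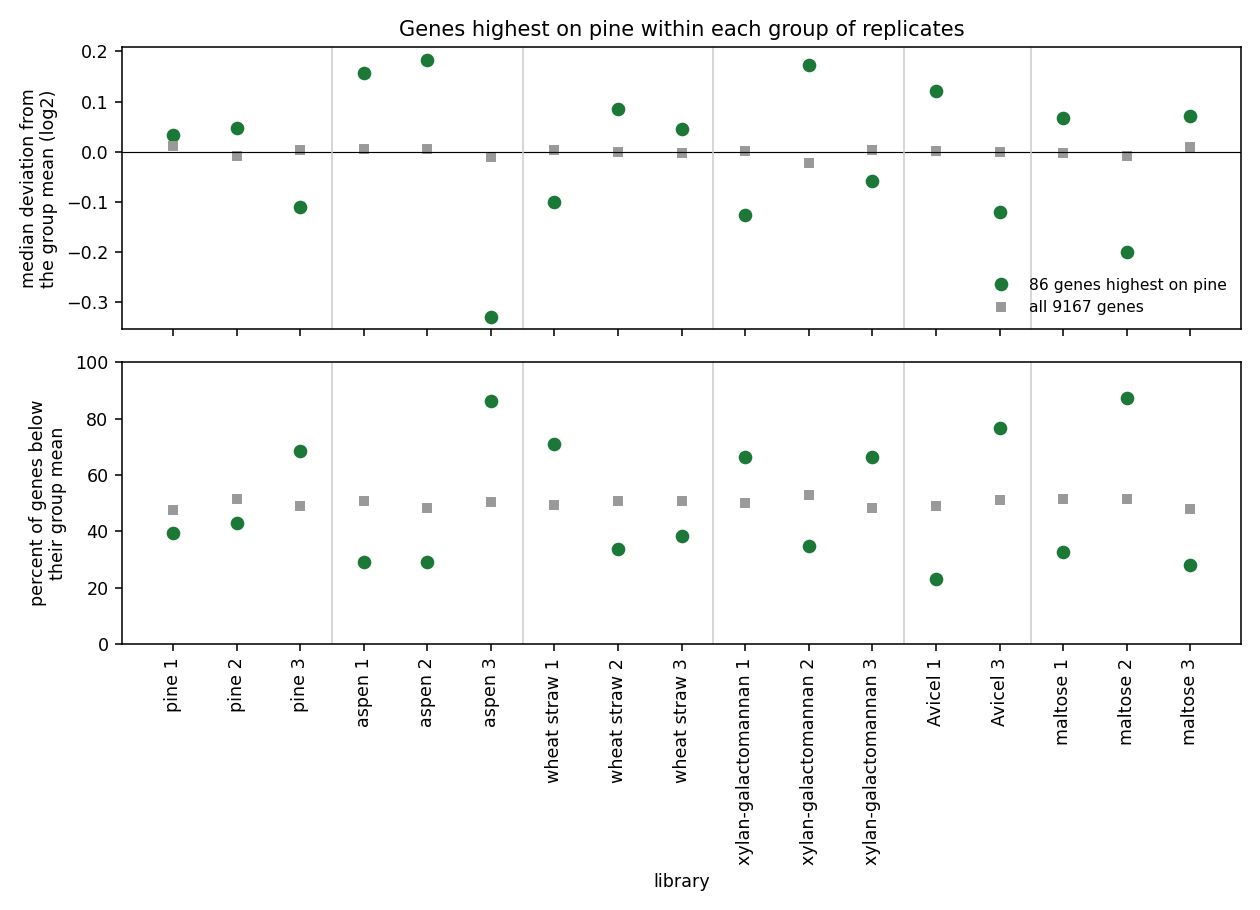
Upper panel, the median over genes of the deviation of each library from its group mean of log2(normalized count + 1). Green circles are the 86 genes highest on pine. Grey squares in this panel are the 8296 genes with a pine mean of at least 6, though the key reads all 9167 genes. Lower panel, the percent of genes below their group mean in each library, where aspen replicate 3 and maltose replicate 2 hold 74 and 75 of the 86 genes. The grey squares of this panel are all 9167 genes and stay between 47.4% and 52.8%.

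On pine itself, the 86 genes were highest in replicate 1 for 31 genes, in replicate 2 for 43 and in replicate 3 for 12, and lowest in replicate 3 for 48. Their SD over the pine libraries had a median of 0.22 on the log2 scale, against 0.16 for all genes with a pine mean of at least 6, and was over 0.5 for 9 genes. Replicate 2 was more than 1.5 times both other pine libraries in 13 of the 86 genes, against 2.17% of the genes with a pine mean of at least 6. For replicates 1 and 3 this held for 0 of the 86, against 0.374% and 0.699%. Of the named genes, proteins 9969, 3078, 8355, 6680 and 2797 were among those high in replicate 2, as the plot of the named genes shows.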

How the data were processed

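RNA-seq libraries of mycelium (17, in 6 groups set by the culture labels) were analysed from 2 deposited tables. According to the study and its processing notes, the authors aligned paired-end reads of poly-A RNA with TopHat2 and counted them per gene model with HTSeq. The deposited count table holds whole-number counts for 10442 gene models, with library totals from 10668073 to 16176027, which limit the precision for weakly transcribed genes. The deposited normalized signal is these counts divided by DESeq2 size factors by the authors, for 9167 gene models. The treatment of strand and of reads mapping to several genes is not given in the sources used here, and counts of near-identical copies are uncertain.

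The rule for choosing genes used the normalized signal, and the tests used the counts. edgeR 4.0.16 in R 4.3.3 was used with filterByExpr, TMM factors and 1 quasi-likelihood fit over all libraries, with group as the only term. Each SE was derived from the log2 fold change and its F statistic (their ratio, with F under a square root). The study names both FDR and Bonferroni adjustment, and Benjamini-Hochberg was used here. The scripts were tested on simulated data. The genes, lists and comparisons were chosen with earlier results of these data known. Genes named are those annotated in the study's lists and the 2 unannotated ones with the largest leads, and others are named where a count was small. The annotation lists group genes by CAZyme family, KOG and EC code. Of the protein IDs, 0 matched the RefSeq gene table, so no sequence or position is given. The study describes its replicates as biological. Alternatives covered scaling, pseudocount, averaging, filter, tool (DESeq2 1.42.0), adjustment, threshold, replicate block and leaving out libraries.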

Additional observations from a re-analysis of the deposited data

How the results depend on the processing

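The rule took 77 genes with TMM, 60 with upper-quartile and 45 with total-count scaling in place of 86. With total counts the median of pine minus maltose over all genes was -0.39 on the log2 scale, and with upper-quartile factors -0.16, against 0.0078 as deposited. A pseudocount of 10 gave 81 genes, medians in place of means 95 (69 shared with the 86), and leaving out 1 library 77 to 105. Without pine replicate 1, 2 or 3 the rule took 77, 97 and 105 genes. Of these, 74, 69 and 83 were shared with the 86. The leads of the 10 named genes were taken again with TMM or upper-quartile scaling, a pseudocount of 10, or 1 pine library left out. Of these 60 leads, 57 were at least 1. Total-count scaling and medians were not applied to them.

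Of 176 counts of called genes under alternatives, 136 were within 1.5 times of the value reported. With Bonferroni adjustment the numbers higher and lower were 11 and 0 for aspen, 9 and 0 for wheat straw, 1 and 0 for xylan-galactomannan and 1 and 0 for Avicel against maltose, 4 and 0 for aspen and 5 and 0 for wheat straw against Avicel, and 1 higher for wheat straw against aspen. With no threshold on the fold change they were 13 lower for aspen, 39 and 2 for wheat straw, 24 and 8 for xylan-galactomannan and 15 higher for Avicel against maltose, 22 and 10 for aspen and 28 and 3 for wheat straw against Avicel, and 14 and 2 for wheat straw against aspen. Upper-quartile factors gave 2 lower for wheat straw against maltose. Over all 9162 genes tested, the Bonferroni numbers against maltose were 920 higher and 650 lower for aspen, and 680 and 378 for wheat straw. They were 333 and 149 for xylan-galactomannan and 345 and 274 for Avicel. Against Avicel they were 564 and 436 for aspen and 428 and 416 for wheat straw, with 171 and 241 for wheat straw against aspen. With no threshold on the fold change, 1362 to 2680 of all genes were higher and 1373 to 2815 lower across the 7 comparisons.

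Leaving out 1 library gave 17 to 22 higher and 5 to 7 lower for aspen, 21 to 22 and 0 to 2 for wheat straw, 8 to 15 and 1 to 3 for xylan-galactomannan and 2 to 10 and 1 to 7 for Avicel against maltose. It gave 9 to 14 and 2 to 8 for aspen and 13 to 19 and 1 to 1 for wheat straw against Avicel, and 2 to 7 and 0 to 1 for wheat straw against aspen. By construction, a stricter threshold calls fewer genes. With Bonferroni adjustment, genes higher on aspen than on maltose went from 20 to 11 of the 86, and from 1196 to 920 over all genes. Genes lower there went from 7 to 0 of the 86, and from 918 to 650 over all genes. The cause of this difference and of the other changes was not tested.

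Deviations of same-numbered replicates correlated between -0.245 and 0.195, and in no comparison was every pair over 0.1, so the numbers were not taken to pair samples. In the 4 comparisons with 3 shared numbers, 12 of 24 library entries correlated best with their own number. A replicate block gave 10 higher and 6 lower for Avicel against maltose and 10 higher for xylan-galactomannan against maltose. For wheat straw against Avicel it gave 18 higher, 16 of them shared with the 17 reported, with proteins 7442 and 8078 gained and 4675 lost. It kept all 14 counts within 1.5 times of those reported.

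Some values were near the floor, such as protein 8355 in Avicel replicate 3, at 3.01 normalized counts against 70.6 in Avicel replicate 1. Total counts were 15112609 in replicate 3 and 13724145 in replicate 1, and the part of depth was not tested.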

Other observations

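Protein IDs of the 86 genes lay close to each other more often than those of all genes. Another of the 86 genes was within 2 protein IDs for 10 of them (11.6%), and 3.39% of all genes had one of the 86 genes within 2 protein IDs. Whether neighbouring IDs are neighbours in the genome is not given in the sources used here, and this was not tested further. Outside the annotated genes, protein 1271 had the largest number of counts on pine among the 86, with 44279, 58771 and 41717 normalized counts on pine. Avicel, its next highest group by mean, had 11617 and 9149. The highest library outside pine was aspen replicate 1, with 11974.5, while the other aspen libraries had 6530 and 5481.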
